A study of Mus musculus with 16 samples.

Results

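The genes described are 10 of the ERBB receptor system, 7 ligands of the EGF family (Areg, Ereg, Hbegf, Tgfa, Btc, Epgn and Nrg1) and 3 receptors (Egfr, Erbb2 and Erbb3), out of 36528 gene identifiers measured in each library. They were taken by name, each matched from its NCBI Gene identifier to a symbol, whatever its level or change. The 16 libraries are RNA sequencing of cells from mouse intestinal tumours that had been sorted by flow cytometry on GFP. There were 4 groups of 4 libraries: GFP+ and GFP- cells of tumours labelled AKVPSL, and GFP+ and GFP- cells of tumours labelled AKVPL. The design text calls the sorted cells Lgr5+ and Lgr5-, so GFP is read here as the reporter of Lgr5, a receptor that marks crypt stem cells. The labels do not spell out the letters of the genotype names. Mouse tumour models named in this way carry changes in genes that include Apc and Trp53, a villin-driven Cre that acts in the intestinal epithelium and an Lgr5 reporter, all of which both groups would share, and S stands for Smad4, which only AKVPSL would carry. The sources used here do not give the age or treatment of the mice, the gating beyond GFP, or whether the numbered replicates came from separate animals, so the spread behind each p-value is that of these libraries and may be technical. All titles name the colon, whereas the tissue field names the small intestine for 15 libraries and the colon for 1, AKVPSL GFP- replicate 1. None of the 22 called results of the members was lost without that library.

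ERBB receptors are cell-surface tyrosine kinases that act as pairs: ligand binding lets EGFR, ERBB3 or ERBB4 expose a dimerisation arm, and the paired kinases then signal through RAS-MAPK and PI3K-AKT. ERBB2 has no known ligand and is the preferred partner of the others, while ERBB3 has an impaired kinase and many docking sites for PI3K. The ligands are made as membrane-bound precursors that ADAM proteases release, and in the intestine EGF family ligands feed the growth of crypt stem and progenitor cells.

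Lgr5 itself ran from 253 to 284 CPM (TMM-scaled counts per 1e6 counts) in AKVPSL GFP+ and from 48.4 to 89.8 CPM in AKVPSL GFP-, and from 247 to 345 CPM in AKVPL GFP+ and from 57.6 to 74.6 CPM in AKVPL GFP-, so every GFP+ library lay above every GFP- library. The libraries labelled AKVPSL did not have less Smad4, which ran from 222 to 283 CPM in AKVPSL GFP+ against 149 to 157 CPM in AKVPL GFP+, and from 150.2 to 211 CPM in AKVPSL GFP- against 126 to 159 CPM in AKVPL GFP-. Counts over a whole gene cannot show the loss of a part of it, so this neither checks nor contradicts a deletion. The libraries held between 10.9 and 41.6 M counts (M, 1e6), with a median of 25.9 M. Epithelial markers (16 genes, all with counts in every group) summed to 12584 to 12958 CPM in AKVPSL GFP+ and 13339 to 14230 CPM in AKVPSL GFP-. In AKVPL they summed to 11650 to 14722 CPM in GFP+ and 10004 to 12410 CPM in GFP-. Every AKVPL GFP- library thus lay below every AKVPSL GFP- library. Markers of other cells were present in the GFP- sorts above all. Fibroblast markers (10 genes, all with counts in every group) summed to 189 to 991 CPM in AKVPSL GFP+ and 1314 to 2672 CPM in AKVPSL GFP-, and to 528 to 1090 CPM in AKVPL GFP+ and 4100 to 8858 CPM in AKVPL GFP-. Macrophage markers (8 genes, all with counts in every group) summed to 51.3 to 279 CPM in AKVPSL GFP+ and 548 to 3363 CPM in AKVPSL GFP-, and to 309 to 916 CPM in AKVPL GFP+ and 2357 to 3891 CPM in AKVPL GFP-. In these bulk samples fewer cells of a type and less RNA per cell cannot be told apart.

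The promoters of 5 members whose levels differed between groups are printed first, so that their letters stand beside the values. Each is 300 bases, 250 before the annotated start and 50 from it, in RefSeq's sequence of build GRCm38.p6; 6 of the 10 members were matched, and Epgn, the remaining match, is left unprinted because its counts were near the limit of detection. Areg lies at chr5:91139349-91139648 on the plus strand, Tgfa at chr6:86194972-86195271 on the plus strand, Btc at chr5:91402945-91403244 on the minus strand, Egfr at chr11:16751953-16752252 on the plus strand and Erbb2 at chr11:98412234-98412533 on the plus strand. For Tgfa alone the start used lies inside the annotated gene, which begins at chr6:86195038. Part of the Tgfa bases before the start is therefore within the gene. Letters run 5′ to 3′ on the gene's own strand, and capitals mark every match, on either strand, to the 6 motifs searched: AP-1 as TGANTCA, the CRE half-site as TGACG, TEAD as GGAATG, the SMAD box as CAGAC, TATA as TATAAA and TCF as CTTTGA.
Areg: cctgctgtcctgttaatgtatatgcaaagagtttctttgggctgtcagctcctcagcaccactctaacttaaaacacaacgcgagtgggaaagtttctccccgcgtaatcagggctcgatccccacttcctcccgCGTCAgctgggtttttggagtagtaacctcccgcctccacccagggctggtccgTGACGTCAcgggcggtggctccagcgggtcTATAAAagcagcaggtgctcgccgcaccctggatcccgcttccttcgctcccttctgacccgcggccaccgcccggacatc
Tgfa: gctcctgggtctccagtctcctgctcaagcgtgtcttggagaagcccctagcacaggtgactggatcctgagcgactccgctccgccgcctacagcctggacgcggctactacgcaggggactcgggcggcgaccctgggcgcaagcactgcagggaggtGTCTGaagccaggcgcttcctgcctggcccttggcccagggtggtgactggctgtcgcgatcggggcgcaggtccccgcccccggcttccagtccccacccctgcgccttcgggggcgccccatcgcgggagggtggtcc
Btc: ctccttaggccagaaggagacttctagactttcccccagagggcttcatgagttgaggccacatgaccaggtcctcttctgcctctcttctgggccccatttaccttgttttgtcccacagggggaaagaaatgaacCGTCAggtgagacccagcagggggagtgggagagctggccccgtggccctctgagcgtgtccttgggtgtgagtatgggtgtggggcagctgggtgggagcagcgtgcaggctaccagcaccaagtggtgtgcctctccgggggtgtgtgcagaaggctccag
Egfr: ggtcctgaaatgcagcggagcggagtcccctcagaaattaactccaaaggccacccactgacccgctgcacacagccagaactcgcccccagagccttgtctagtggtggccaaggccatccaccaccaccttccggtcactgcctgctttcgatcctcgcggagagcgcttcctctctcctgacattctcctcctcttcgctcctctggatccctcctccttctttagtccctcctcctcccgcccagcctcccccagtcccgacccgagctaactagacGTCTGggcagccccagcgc
Erbb2: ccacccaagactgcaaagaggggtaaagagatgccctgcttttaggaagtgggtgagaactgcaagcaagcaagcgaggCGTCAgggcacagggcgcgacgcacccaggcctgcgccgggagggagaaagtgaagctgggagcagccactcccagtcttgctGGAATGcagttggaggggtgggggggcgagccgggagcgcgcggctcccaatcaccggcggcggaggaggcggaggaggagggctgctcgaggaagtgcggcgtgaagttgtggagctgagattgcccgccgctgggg

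Areg held the most matches, with a TATA box at -31 to -26 and 3 CRE half-sites, of which those at -61 to -57 and -58 to -54 lie on opposite strands and overlap, while the third lies at -115 to -111 (positions count from the start). Btc had 1 CRE half-site at -113 to -109, and Erbb2 had 1 at -171 to -167 beside a TEAD match at -88 to -83. The SMAD box was matched in Tgfa at -90 to -86, which is within the annotated gene, and in Egfr at 32 to 36 after the start. Of all 32851 promoters of the same length, 20.8% held the CRE half-site, 13.6% the TATA letters, 14.7% the TEAD letters, 49.6% the SMAD box, 7.81% the AP-1 letters and 16% the TCF letters. A match is a description of letters, and the AP-1 and TCF letters were not in these 5 windows. GC content was 59.3% for Areg, 70.7% for Tgfa, 60.3% for Btc, 62.3% for Egfr and 66% for Erbb2, against a median of 52.7% over all promoters.

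On the length-adjusted scale, the authors' size-factor-adjusted RPKM, 2 ligands dominated. Hbegf, the heparin-binding ligand of EGFR and ERBB4, averaged 179.8 ± 17.7 RPKM in AKVPSL GFP+, 142 ± 25.1 RPKM in AKVPSL GFP-, 101 ± 34.7 RPKM in AKVPL GFP+ and 91.4 ± 16.8 RPKM in AKVPL GFP- (SD, n = 4 each). Areg, amphiregulin, which binds EGFR alone, averaged 96.9 ± 8.80 RPKM in AKVPSL GFP+, 144 ± 29.6 RPKM in AKVPSL GFP-, 67.9 ± 39.9 RPKM in AKVPL GFP+ and 70.1 ± 24.9 RPKM in AKVPL GFP- (SD, n = 4 each). The pair made up 79.1% to 89.5% of the summed RPKM of the 7 ligands in every library. Hbegf and Areg were apart in AKVPSL GFP+, where the lowest Hbegf library exceeded the highest Areg library, and overlapped in the other 3 groups.

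Erbb3, Erbb2, Tgfa and Btc formed a middle tier, with group means between 7.55 RPKM (Btc in AKVPL GFP-) and 41.5 RPKM (Erbb3 in AKVPSL GFP+). In AKVPSL GFP+ the order was Erbb3, Tgfa, Erbb2 and Btc, and only Btc lay apart from the gene before it. In AKVPSL GFP- it was Tgfa, Erbb2, Btc and Erbb3, the last 3 with overlapping ranges. In AKVPL GFP+ it was Erbb3, Erbb2, Tgfa and Btc, with a gap only between Erbb2 and Tgfa. In AKVPL GFP- Erbb3, Erbb2 and Tgfa overlapped from neighbour to neighbour, and Btc stood below Egfr. Egfr averaged 3.15 ± 0.63 RPKM in AKVPSL GFP+, 4.62 ± 0.36 RPKM in AKVPSL GFP-, 4.91 ± 0.93 RPKM in AKVPL GFP+ and 10.9 ± 1.42 RPKM in AKVPL GFP- (SD, n = 4 each). Ereg, Epgn and Nrg1 stayed under 1 RPKM in every library and together made up 0.06% to 0.81% of the ligand RPKM.

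**Figure D1:**
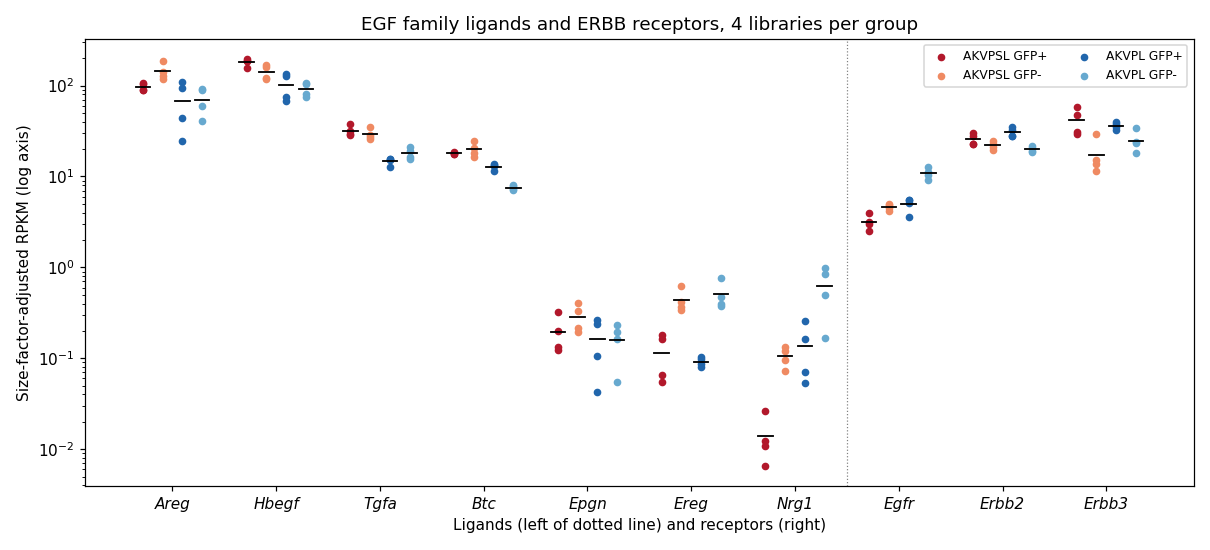
Size-factor-adjusted RPKM (log axis) of the 7 ligands and 3 receptors in all 16 libraries; each point is a library, colours give the 4 groups and bars the group means. Hbegf and Areg stand above the other ligands in every group, while Ereg, Epgn and Nrg1 stay under 1 RPKM.

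All 10 members passed the filter on low counts, and each was tested in 1 edgeR quasi-likelihood fit over 18072 genes, with the Benjamini-Hochberg adjustment taken over every tested gene and a threshold of 0.05. For AKVPSL against AKVPL in GFP+ cells 3 members were higher and 2 lower, where 53.0% of all genes passed either way. In GFP- cells 4 members were higher and 2 lower, where 62.7% of all genes passed. For GFP+ against GFP- cells 1 member was higher and 3 lower in AKVPSL, where 47.0% of all genes passed, and 2 were higher and 3 lower in AKVPL, where 39.1% passed. For the difference between the sort effects, 2 members were lower and 0 higher, where 20.7% of all genes passed (7.01% higher, 13.7% lower). The 2 groups did not overlap for 4 members between genotypes in GFP+ cells (51.3% of all genes) and 6 in GFP- cells (53.2%), and for 5 members between sorts in AKVPSL (39.1%) and 5 in AKVPL (41.2%). These shares of members are close to those of all genes, so the counts are no result about the family and the description that follows is of single genes. The median change of the 10 members was 0.29 on the log2 scale for genotype in GFP+ cells (all genes -0.05), 0.48 in GFP- cells (all genes 0.00), -0.33 for the sort in AKVPSL (all genes -0.01) and 0.07 for the sort in AKVPL (all genes 0.14).

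The scaling of the libraries bears on the AKVPL sort most. There the median gene stood at 0.14 by TMM, 0.04 by median-ratio size factors, 0.06 by library totals and -0.19 by scaling to the 16 epithelial genes. In that order, 57.8%, 42.1%, 44.9% and 12.2% of the called genes were higher in GFP+. TMM itself moved when AKVPSL GFP- replicate 1 or 4, or AKVPSL GFP+ replicate 1, was left out. The AKVPL median was then 0.05, with 42.9% to 44.3% of the called genes higher. The same omissions put the share higher in the AKVPSL sort at 38.2% to 38.7%. Scaling to the epithelial genes also moved the median gene to -0.32 and the share higher to 29.7% (51.1% by TMM) between genotypes in GFP- cells, and moved the share higher to 37.5% (47.7% by TMM) in the AKVPSL sort. For the difference between sort effects the median gene was -0.10 by TMM and 0.15 by epithelial genes, and the share higher was 33.8% by TMM, 49.2% by size factors, 44.2% by totals and 75.3% by epithelial genes.

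The 4 abundant ligands of EGFR were higher in AKVPSL than AKVPL tumours in GFP- cells, and 3 of them, Hbegf, Tgfa and Btc, also in GFP+ cells. Tgfa, transforming growth factor alpha, had 137, 132, 175 and 146 CPM in AKVPSL GFP+, against 72.4, 73.1, 69.6 and 58.4 CPM in AKVPL GFP+. In the other sort it had 125, 120.4, 134 and 164 CPM in AKVPSL GFP-, against 67.1, 82.8, 70.6 and 92.0 CPM in AKVPL GFP-. The genotypes did not overlap in either sort. The log2 change of Tgfa was 1.11 ± 0.12 in GFP+ cells (SE; edgeR adjusted p = 5.65e-07) and 0.80 ± 0.12 in GFP- cells (adjusted p = 2.2e-05). Between the sorts it did not pass, at 0.12 ± 0.12 in AKVPSL (edgeR adjusted p = 0.443) and -0.19 ± 0.12 in AKVPL (adjusted p = 0.238), where scaling to the epithelial genes gave -0.54 (adjusted p = 0.00555).

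Btc, betacellulin, a ligand of EGFR and ERBB4, had 57.1, 59.2, 56.3 and 56.6 CPM in AKVPSL GFP+, against 42.7, 42.9, 40.6 and 35.8 CPM in AKVPL GFP+. It had 76.8, 57.6, 51.1 and 64.5 CPM in AKVPSL GFP-, against 23.5, 23.4, 21.1 and 21.3 CPM in AKVPL GFP-. Every AKVPSL library lay above every AKVPL library, and AKVPL GFP- was the lowest group. Btc was higher in AKVPSL by 0.50 ± 0.11 on the log2 scale in GFP+ cells (SE; edgeR adjusted p = 0.00067) and by 1.48 ± 0.11 in GFP- cells (adjusted p = 2.34e-09). The sort effect differed between the genotypes: in AKVPSL it was -0.13 ± 0.11 (edgeR adjusted p = 0.344), with 2 of 4 numbered pairs higher in GFP+, and in AKVPL it was 0.86 ± 0.11 (adjusted p = 9.8e-06), with 4 of 4 higher. The test of that difference gave -0.99 ± 0.15 (edgeR adjusted p = 0.000306).

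Hbegf had 487, 509, 481 and 403 CPM in AKVPSL GFP+, against 197, 329, 348 and 175 CPM in AKVPL GFP+. It had 435, 413, 307 and 320.0 CPM in AKVPSL GFP-, against 195, 260.4, 256 and 180.2 CPM in AKVPL GFP-. Again the genotypes did not overlap in either sort, and within AKVPL replicates 2 and 3 were the higher ones in both sorts. Hbegf was higher in AKVPSL by 0.84 ± 0.20 in GFP+ cells (log2, SE; edgeR adjusted p = 0.00217) and by 0.73 ± 0.20 in GFP- cells (adjusted p = 0.00504). Its change with the sort was 0.35 ± 0.20 in AKVPSL (edgeR adjusted p = 0.166) and 0.23 ± 0.20 in AKVPL (adjusted p = 0.378; -0.10 under epithelial scaling). With the replicate number as a block, the AKVPSL value was 0.36 (edgeR adjusted p = 0.0113), with all 4 pairs higher in GFP+. The block was run because same-numbered sorts within a genotype deviated together. In AKVPSL, however, some differently numbered libraries correlated more, which limits every block value given for that sort.

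Areg had 136, 139.9, 117 and 118 CPM in AKVPSL GFP+, against 58.8, 124, 142 and 32.5 CPM in AKVPL GFP+. It had 244, 187, 157 and 169 CPM in AKVPSL GFP-, against 72.8, 110.3, 113 and 49.4 CPM in AKVPL GFP-. The genotypes overlapped in GFP+ and were apart in GFP-, and AKVPL replicates 2 and 3 again exceeded 1 and 4 in both sorts. Areg was higher in AKVPSL by 1.13 ± 0.38 in GFP- cells (log2, SE; edgeR adjusted p = 0.0191), and the change was 0.52 ± 0.38 in GFP+ cells (adjusted p = 0.266). The call in GFP- cells was lost without AKVPL GFP- replicate 1 (1.06, edgeR adjusted p = 0.0504) or replicate 4 (0.94, adjusted p = 0.0556). In AKVPSL its sort effect was -0.57 ± 0.38 (edgeR adjusted p = 0.234), and the replicate block made it a call at -0.55 (adjusted p = 0.00441), with all 4 pairs lower in GFP+ and the sorts not overlapping. In AKVPL it was 0.05 ± 0.38 (edgeR adjusted p = 0.936), 2 of 4 pairs each way, and its sign turned with the scaling.

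**Figure D2:**
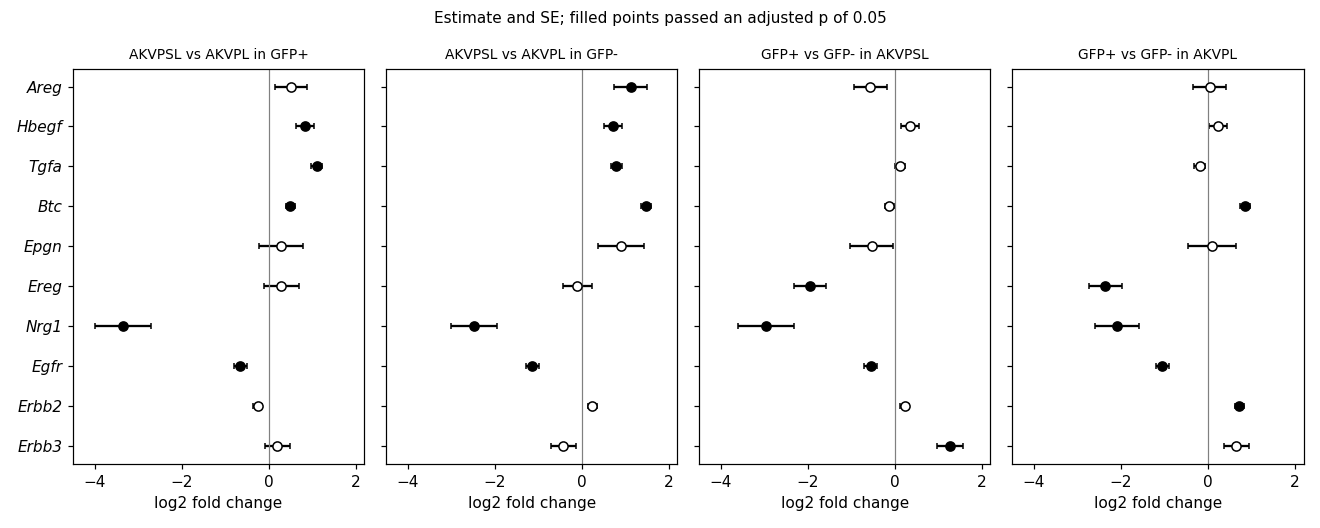
Log2 fold change and SE of each member in 4 comparisons; filled points passed an edgeR adjusted p of 0.05. Tgfa, Btc and Hbegf lie right of 0 and Nrg1 and Egfr left of 0 in both genotype comparisons, and Ereg, Nrg1 and Egfr lie left of 0 in both sort comparisons.

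The rare ligands showed another pattern: Ereg and Nrg1 were lower in GFP+ than in GFP- cells of both genotypes, and Nrg1 was also lower in AKVPSL than in AKVPL in both sorts. Nrg1, neuregulin 1, binds ERBB3 and ERBB4 and is made in the intestine largely by stromal cells. It had 0.12, 0.20, 0.23 and 0.49 CPM in AKVPSL GFP+ against 1.34, 1.81, 2.53 and 2.26 CPM in AKVPSL GFP-. It had 1.35, 3.03, 4.84 and 1.00 CPM in AKVPL GFP+ against 8.79, 14.7, 17.4 and 2.96 CPM in AKVPL GFP-. All 4 pairs were lower in GFP+ in both genotypes. Only in AKVPL did the sorts overlap, through replicate 4 of GFP-, which had 35 counts. The sort effect was -2.97 ± 0.65 in AKVPSL (log2, SE; edgeR adjusted p = 0.00153) and -2.10 ± 0.51 in AKVPL (adjusted p = 0.00395), and the difference between these, -0.87 ± 0.81, did not pass (adjusted p = 0.47). Against AKVPL, Nrg1 in AKVPSL was at -3.35 ± 0.64 in GFP+ cells (edgeR adjusted p = 0.000345) and at -2.48 ± 0.52 in GFP- cells (adjusted p = 0.000638), with no overlap in either sort. The AKVPSL GFP+ group held only 30 counts in all, and on log2(RPKM + 1), which compresses values this low, the AKVPSL sort (-0.12, limma adjusted p = 0.405) and the GFP+ genotype comparison (-0.16, adjusted p = 0.264) did not pass.

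Ereg, epiregulin, a ligand of EGFR and ERBB4, had 0.25, 0.74, 0.30 and 0.82 CPM in AKVPSL GFP+ against 2.85, 1.67, 1.55 and 1.90 CPM in AKVPSL GFP-. It had 0.37, 0.46, 0.39 and 0.44 CPM in AKVPL GFP+ against 1.70, 2.02, 3.24 and 1.61 CPM in AKVPL GFP-. The sorts were apart in both genotypes, and the genotypes overlapped in both sorts. The sort effect was -1.96 ± 0.37 in AKVPSL (log2, SE; edgeR adjusted p = 0.000329) and -2.36 ± 0.38 in AKVPL (adjusted p = 0.000103), while the genotype effect was 0.29 ± 0.41 in GFP+ cells (adjusted p = 0.564) and -0.10 ± 0.34 in GFP- cells (adjusted p = 0.805). Ereg shares 319 bases with the lncRNA Gm19610, which had 0 to 8 counts per library, and the strand setting of the counting is not given.

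Epgn, epigen, a weak ligand of EGFR, had between 2 and 19 counts per library. It ran from 0.23 to 0.60 CPM in AKVPSL GFP+, 0.36 to 0.77 CPM in AKVPSL GFP-, 0.08 to 0.49 CPM in AKVPL GFP+ and 0.10 to 0.40 CPM in AKVPL GFP-, and all 4 groups overlapped. Its largest estimate was 0.91 ± 0.53 for genotype in GFP- cells (log2, SE; edgeR adjusted p = 0.141).

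Fibroblast, macrophage, dendritic cell and mast cell markers were lower in GFP+ with the sort, as Nrg1 and Ereg were; Ereg passed no genotype comparison. Of the fibroblast markers 10 of 10 were lower in GFP+ in the AKVPSL sort and 9 of 10 in the AKVPL sort, and for genotype 1 of 10 was lower in GFP+ cells and 9 of 10 in GFP- cells. Of the macrophage markers 8 of 8 were lower in GFP+ in the AKVPSL sort and 6 of 8 in the AKVPL sort, and for genotype 4 of 8 were lower in GFP+ cells and 2 of 8 in GFP- cells. Dendritic cell markers (7 genes, all with counts in every group) summed to 16.4 to 53.4 CPM in AKVPSL GFP+, 436 to 959 CPM in AKVPSL GFP-, 157 to 420 CPM in AKVPL GFP+ and 1909 to 4673 CPM in AKVPL GFP-. Mast cell markers (8 genes, all with counts in every group) summed to 2.97 to 9.21 CPM in AKVPSL GFP+, 30.3 to 139 CPM in AKVPSL GFP-, 64.8 to 78.8 CPM in AKVPL GFP+ and 329 to 690 CPM in AKVPL GFP-. Glial and Schwann cell markers (5 genes, with Gfap at 0 in AKVPSL GFP+ and Sox10 and Gfap at 0 in AKVPSL GFP-) summed to 5.72 to 7.47 CPM in AKVPSL GFP+, 5.15 to 7.97 CPM in AKVPSL GFP-, 4.30 to 10.8 CPM in AKVPL GFP+ and 3.93 to 5.76 CPM in AKVPL GFP-, and with the sort 0 were lower in either genotype. Tuft cell markers (5 genes, all with counts in every group) moved with genotype, at 97.8 to 109 CPM in AKVPSL GFP+, 104 to 177 CPM in AKVPSL GFP-, 1108 to 1748 CPM in AKVPL GFP+ and 1253 to 1559 CPM in AKVPL GFP-. Of the 16 epithelial markers 9 were higher and 1 lower in AKVPSL between genotypes in GFP- cells (32.0% and 30.7% of all genes). Their median there was 0.34 on the log2 scale. For the difference of the sort effects 0 were higher and 8 lower (7.01% and 13.7% of all genes), with a median of -0.43. The part of all these cells in the differences of Nrg1, Ereg and the other members, Btc and Erbb2 among them, was not tested.

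**Figure D3:**
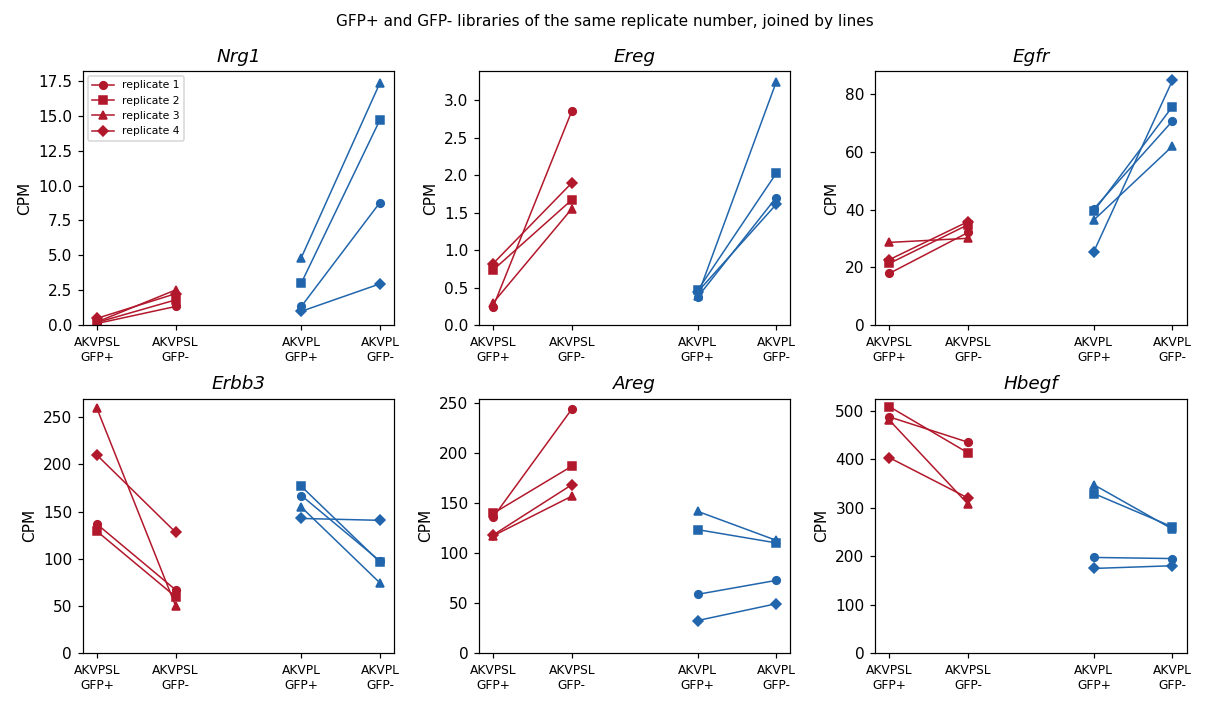
CPM (linear axes from 0) of 6 members in each library, with GFP+ and GFP- libraries of the same replicate number joined by a line and marker shapes giving the replicate. Lines for Nrg1, Ereg and Egfr run upward towards GFP- in all 8 pairs, while those for Erbb3 run downward.

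Among the receptors Egfr stood apart from its partners: it was lower in GFP+ than in GFP- cells and lower in AKVPSL than in AKVPL, in every one of those 4 comparisons. Egfr had 17.9, 21.4, 28.6 and 22.7 CPM in AKVPSL GFP+ against 32.1, 34.7, 30.1 and 35.8 CPM in AKVPSL GFP-. It had 40.2, 39.4, 36.4 and 25.4 CPM in AKVPL GFP+ against 70.6, 75.6, 61.9 and 84.6 CPM in AKVPL GFP-. AKVPL GFP- lay above all other libraries. The sorts did not overlap in either genotype, and the genotypes overlapped in GFP+ only, through AKVPL replicate 4. The sort effect was -0.55 ± 0.15 in AKVPSL (log2, SE; edgeR adjusted p = 0.00574) and -1.04 ± 0.15 in AKVPL (adjusted p = 3.13e-05), and the difference of 0.49 ± 0.21 did not pass (adjusted p = 0.101). The genotype effect was -0.65 ± 0.15 in GFP+ cells (edgeR adjusted p = 0.00132) and -1.14 ± 0.15 in GFP- cells (adjusted p = 3.11e-06). The fibroblast and dendritic cell sums given above were also highest in AKVPL GFP-, and their part in the Egfr differences was not tested.

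Erbb3 ran the other way with the sort. It had 137, 129, 259 and 209.8 CPM in AKVPSL GFP+ against 67.01, 59.7, 50.1 and 128 CPM in AKVPSL GFP-. It had 167, 177, 155 and 143 CPM in AKVPL GFP+ against 97.6, 96.3, 74.3 and 141 CPM in AKVPL GFP-. The sorts were apart in both genotypes, with replicate 4 the highest GFP- library in each. Erbb3 was higher in GFP+ by 1.27 ± 0.29 in AKVPSL (log2, SE; edgeR adjusted p = 0.00287), and the estimate in AKVPL was 0.65 ± 0.29 (adjusted p = 0.0912). The AKVPL value became a call with the replicate block (0.69, edgeR adjusted p = 0.0356), with all 4 pairs higher in GFP+, and without AKVPL GFP- replicate 4 (0.84, adjusted p = 0.0458). The difference between the sort effects was 0.62 ± 0.41 (edgeR adjusted p = 0.303), and 0.99 (adjusted p = 0.0372) without AKVPSL GFP- replicate 4. The genotype effect was 0.20 ± 0.29 in GFP+ cells (edgeR adjusted p = 0.593) and -0.42 ± 0.29 in GFP- cells (adjusted p = 0.225; -0.77 with adjusted p = 0.0124 without AKVPSL GFP- replicate 4).

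Erbb2 was higher in GFP+ cells of AKVPL and passed no genotype comparison. It had 127, 125, 164 and 153 CPM in AKVPSL GFP+ against 117, 108, 126 and 136 CPM in AKVPSL GFP-. It had 193, 155, 152 and 176 CPM in AKVPL GFP+ against 111, 99.0, 95.8 and 105 CPM in AKVPL GFP-. The sorts overlapped in AKVPSL and were apart in AKVPL. Erbb2 was higher in GFP+ by 0.72 ± 0.11 in AKVPL (log2, SE; edgeR adjusted p = 4.86e-05), and the AKVPSL estimate was 0.23 ± 0.11 (adjusted p = 0.0892), which became a call with the replicate block (0.22, adjusted p = 0.0268) and without AKVPSL GFP+ replicate 2 (0.29, adjusted p = 0.0477). All 4 pairs were higher in GFP+ in both genotypes. The difference between these sort effects, -0.49 ± 0.15, passed (edgeR adjusted p = 0.0277), but it was lost under 6 other settings (-0.43 to -0.24) and without AKVPL GFP- replicate 2 or 3, AKVPL GFP+ replicate 1 or 4, or AKVPSL GFP+ replicate 2, 5 libraries in all (-0.48 to -0.43). Between genotypes neither value passed, at -0.25 ± 0.11 in GFP+ cells (edgeR adjusted p = 0.0559) and 0.24 ± 0.11 in GFP- cells (adjusted p = 0.0564; -0.09 under epithelial scaling). The GFP+ value passed under library totals (-0.30, edgeR adjusted p = 0.0251) and epithelial scaling (-0.33, adjusted p = 0.0472), and without AKVPL GFP+ replicate 2 (-0.29) or 3 (-0.30) or AKVPSL GFP+ replicate 3 (-0.32), and the GFP- value without any of 7 libraries (0.25 to 0.30). Erbb2 shares 9 bases with Mien1.

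Ratios within a library put the receptors side by side on the length-adjusted scale, and are given as ranges with no test. Erbb3 over Egfr ran from 9.83 to 15.1 in AKVPSL GFP+, 2.71 to 5.82 in AKVPSL GFP-, 6.76 to 9.13 in AKVPL GFP+ and 1.95 to 2.71 in AKVPL GFP-. Erbb2 over Egfr ran from 7.50 to 9.25 in AKVPSL GFP+, 4.06 to 5.47 in AKVPSL GFP-, 5.15 to 9.08 in AKVPL GFP+ and 1.62 to 2.05 in AKVPL GFP-. AKVPL GFP- was lowest in both ratios. Egfr made up 4.02% to 5.41% of the RPKM of the 3 receptors in AKVPSL GFP+, 8.49% to 12.7% in AKVPSL GFP-, 5.21% to 7.46% in AKVPL GFP+ and 18.8% to 20.9% in AKVPL GFP-. Among the ligands, Areg over Hbegf ran from 0.48 to 0.58 in AKVPSL GFP+ and 0.90 to 1.11 in AKVPSL GFP-, which do not touch, and from 0.37 to 0.81 in AKVPL GFP+ and 0.54 to 0.87 in AKVPL GFP-, which overlap.

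**Figure D4:**
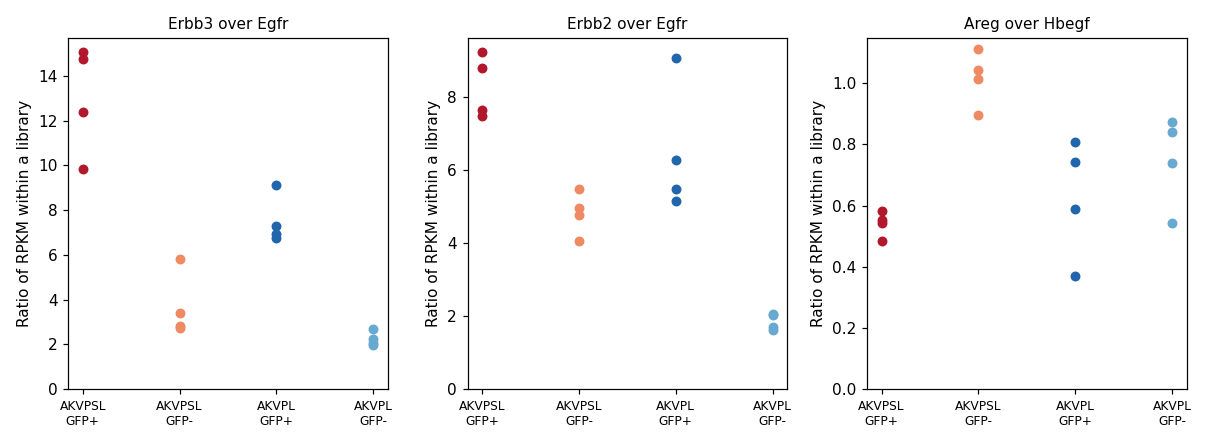
Ratio of size-factor-adjusted RPKM within each library for Erbb3 over Egfr, Erbb2 over Egfr and Areg over Hbegf (linear axes from 0, 4 libraries per group). The Erbb3 ratio runs from 9.83 to 15.1 in AKVPSL GFP+ and from 1.95 to 2.71 in AKVPL GFP-.

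Some of the ligands share a locus. Epgn, Ereg, Areg and Btc follow each other on chromosome 5 within 375.5 kb (GRCm38.p6; Epgn at chr5:91027517-91035212, Ereg at chr5:91074617-91093649, Areg at chr5:91139599-91148432 and Btc at chr5:91357261-91402994). The other members lie elsewhere, Tgfa at chr6:86195038-86275744, Nrg1 at chr8:31807452-32891609, Hbegf on chromosome 18, Erbb3 at chr10:128567523-128589635, and Egfr and Erbb2 on chromosome 11 at chr11:16752203-16913907 and chr11:98412484-98437716. Between genotypes in GFP- cells Btc and Areg were higher in AKVPSL. There Epgn was at 0.91 ± 0.53 (edgeR adjusted p = 0.141). Ereg, between Epgn and Areg and low in counts, was at -0.10 ± 0.34 (edgeR adjusted p = 0.805). In GFP+ cells all 4 neighbours had positive estimates (Epgn 0.28, Ereg 0.295, Areg 0.52 and Btc 0.50), of which only that of Btc passed. The nearest gene on each side of the cluster was tested in the same fit, and both were chosen after their values were seen. Cxcl2, the next gene before Mthfd2l, went the other way. Its mean was 19.7 CPM in AKVPSL GFP+ against 34.0 CPM in AKVPL GFP+. In GFP- cells its mean was 85.4 CPM in AKVPSL against 173 CPM in AKVPL. Mthfd2l, before Epgn, was higher in AKVPSL by 0.84 ± 0.14 in GFP+ cells (edgeR adjusted p = 5.77e-05) and 1.12 ± 0.14 in GFP- cells (adjusted p = 2.08e-06). Parm1, after Btc, was higher in AKVPSL by 1.64 ± 0.16 in GFP+ cells (edgeR adjusted p = 1.5e-07) and 0.69 ± 0.16 in GFP- cells (adjusted p = 0.00129).

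The 5 other genes of the family were rare, apart from Nrg4. Erbb4, the receptor for neuregulins and several EGFR ligands, had 4 counts over AKVPSL GFP+, 2 over AKVPSL GFP- and 0 over both AKVPL groups, and it was not tested. Nrg2 reached at most 0.34 CPM and was not tested. Nrg3 had 0 counts in all AKVPSL GFP+ libraries against 23, 2, 7 and 9 in AKVPL GFP+, which is at least 15.4-fold lower if 3 counts over the group are taken for 0, and against 1, 3, 1 and 4 in AKVPSL GFP-, at least 3.78-fold lower (counting error only). In GFP- cells Nrg3 was at -2.24 ± 0.72 in AKVPSL against AKVPL (log2, SE; edgeR adjusted p = 0.0132). Nrg4, a ligand of ERBB4, had 22.5, 20.1, 15.2 and 18.3 CPM in AKVPSL GFP+ against 28.1, 23.5, 25.0 and 24.3 CPM in AKVPL GFP+, a change of -0.41 ± 0.13 (log2, SE; edgeR adjusted p = 0.0164). It passed no other comparison, and it overlaps Fbxo22 by 4212 bases. Egf itself ran from 0.85 to 2.46 CPM over the 16 libraries and passed no comparison, its smallest edgeR adjusted p being 0.432 for genotype in GFP+ cells.

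On a list of genes that RAS-MAPK signalling is known to induce, most were higher in AKVPSL. This list and the pathway lists that follow were chosen with earlier results of these data known. Their counts are therefore a description and no independent support. The part of the ERBB receptors in these differences was not tested. Of the 12 genes on that list (Dusp4, Dusp5, Dusp6, Spry2, Spry4, Etv4, Etv5, Phlda1, Fosl1, Egr1, Ier3 and Myc) 7 were higher and 0 lower in AKVPSL in GFP+ cells, with a median of 0.64 on the log2 scale (all genes -0.05), and 8 were higher and 0 lower in GFP- cells, with a median of 0.52 (all genes 0.00). For comparison 24.9% of all genes were higher in GFP+ cells and 32.0% in GFP- cells. Spry4, a feedback inhibitor of RAS signalling, was higher by 2.10 ± 0.18 in GFP+ cells (SE; edgeR adjusted p = 3.34e-08) and by 1.10 ± 0.18 in GFP- cells (adjusted p = 4.59e-05). Etv5, an ETS transcription factor, was higher by 1.70 ± 0.13 in GFP+ cells (edgeR adjusted p = 4.35e-09) and by 1.08 ± 0.13 in GFP- cells (adjusted p = 1.25e-06). Myc was higher by 1.05 ± 0.14 in GFP+ cells (edgeR adjusted p = 3.12e-06) and by 1.42 ± 0.14 in GFP- cells (adjusted p = 6.99e-08). With the sort, 4 were higher and 1 lower in AKVPSL (median 0.30, all genes -0.0070) and 4 higher and 0 lower in AKVPL (median 0.24, all genes 0.14). Of all genes 22.4% were higher in the AKVPSL sort and 22.6% in the AKVPL sort. The named ones were Etv5 (1.13 ± 0.13, edgeR adjusted p = 4.45e-06), Spry4 (0.74 ± 0.18, adjusted p = 0.00238) and Egr1 (0.59 ± 0.15, adjusted p = 0.0046) in AKVPSL, and Phlda1 (0.61 ± 0.09, adjusted p = 6.55e-05) and Etv4 (0.49 ± 0.09, adjusted p = 0.000374) in AKVPL.

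Of the genes of receptor inhibition and turnover 4 of 17 were higher and 5 lower in AKVPSL in GFP+ cells, near the shares of all genes (24.9% higher and 28.1% lower). In GFP- cells 3 were higher and 8 lower (32.0% and 30.7% of all genes). The medians were 0.05 in GFP+ cells and -0.12 in GFP- cells. Sh3kbp1, an adaptor of receptor endocytosis, was higher by 1.28 ± 0.08 in GFP+ cells (log2, SE; edgeR adjusted p = 4.44e-10). Lrig3, of the LRIG family of membrane proteins that modulate ERBB receptors, was lower, at -4.88 ± 0.42 in GFP+ cells (edgeR adjusted p = 1.48e-08) and at -2.57 ± 0.34 in GFP- cells (adjusted p = 3.62e-06). Socs3, a suppressor of cytokine signalling, was at -1.66 ± 0.16 in GFP+ cells (edgeR adjusted p = 7.33e-08) and at -1.495 ± 0.16 in GFP- cells (adjusted p = 2.35e-07), and Cbl, a ubiquitin ligase of EGFR, at -1.42 ± 0.33 in GFP- cells (adjusted p = 0.00177). With the sort, 8 were higher and 3 lower in AKVPSL and 5 higher and 3 lower in AKVPL (medians 0.17 and -0.0049), against 22.4% higher and 24.6% lower of all genes in AKVPSL and 22.6% and 16.5% in AKVPL. Lrig1, an inhibitor of ERBB receptors in crypt stem cells, was higher in GFP+ by 0.78 ± 0.09 in AKVPSL (edgeR adjusted p = 7.2e-06) and by 0.69 ± 0.09 in AKVPL (adjusted p = 2.02e-05). Lrig3 was at -2.59 ± 0.45 with the sort in AKVPSL (edgeR adjusted p = 0.000173), and its sort effect differed between genotypes by -2.31 ± 0.55 (adjusted p = 0.00654).

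Genes of ligand shedding were lower more often than higher: 7 of 11 were lower and 1 higher in AKVPSL in GFP+ cells (28.1% of all genes were lower), and 6 were lower and 2 higher in GFP- cells (30.7% lower), with medians of -0.50 and -0.30. Nkd2, which helps deliver the TGFA precursor to the cell surface, was at -2.76 ± 0.38 in GFP+ cells (log2, SE; edgeR adjusted p = 8.31e-06) and at -3.12 ± 0.35 in GFP- cells (adjusted p = 5.74e-07), opposite in sign to Tgfa itself. Adam12, a metalloprotease, was at -1.89 ± 0.35 in GFP+ cells (edgeR adjusted p = 0.000168) and at -2.25 ± 0.31 in GFP- cells (adjusted p = 6.43e-06), while Adam9 was higher by 0.80 ± 0.10 in GFP+ cells (adjusted p = 1.73e-06). With the sort, 4 were lower and 1 higher in AKVPSL (24.6% and 22.4% of all genes). In AKVPL 6 were lower and 1 higher (16.5% and 22.6% of all genes). The largest changes were those of Adam12, Timp3, an inhibitor of ADAM proteases, and Nkd2. In AKVPL they were at -2.65 ± 0.32 (Adam12, edgeR adjusted p = 6.1e-06), -2.86 ± 0.44 (Timp3, adjusted p = 0.000204) and -2.17 ± 0.33 (Nkd2, adjusted p = 7.01e-05). Fibroblast marker sums, given above, ran in the same direction, and their part in these differences was not tested. Adam17, the main sheddase of AREG, TGFA and HB-EGF, is outside the naming rule and was chosen after its values were seen: its genotype effect was 0.16 ± 0.07 in GFP+ cells (edgeR adjusted p = 0.0717) and -0.01 ± 0.07 in GFP- cells (adjusted p = 0.887). Adam10 and Rhbdf2, outside the rule as well, were lower in AKVPSL in both sorts without overlap. Adam10 was at -0.76 ± 0.12 in GFP+ cells (edgeR adjusted p = 2.47e-05) and -0.75 ± 0.12 in GFP- cells (adjusted p = 2.5e-05). Rhbdf2 was at -0.50 ± 0.11 in GFP+ cells (edgeR adjusted p = 0.000729) and -0.66 ± 0.11 in GFP- cells (adjusted p = 3.32e-05).

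Adaptors and members of the RAS and PI3K relay numbered 15 of 26 higher and 6 lower in GFP+ in the AKVPSL sort (22.4% and 24.6% of all genes). In the AKVPL sort 4 were higher and 2 lower (22.6% and 16.5% of all genes). For the difference of the sort effects 4 were higher and 3 lower (7.01% and 13.7% of all genes). Over the 66 genes of the 4 pathway lists the AKVPL sort split of 14 higher and 11 lower turned to 2 higher and 22 lower under epithelial scaling. The genotype split in GFP- cells of 20 higher and 22 lower became 11 and 35. The AKVPSL sort split of 28 higher and 14 lower became 19 and 14 under that scaling. It was 17 and 16 without AKVPSL GFP- replicate 1, and 18 and 14 without AKVPSL GFP+ replicate 1. In AKVPSL Gab1, a docking protein of receptor signalling, was higher in GFP+ by 0.84 ± 0.13 (log2, SE; edgeR adjusted p = 7.71e-05), and Sos1, a RAS exchange factor, by 0.80 ± 0.12 (adjusted p = 3.48e-05). The sort effects differed between genotypes by 0.88 ± 0.19 for Gab1 (edgeR adjusted p = 0.00321), 0.64 ± 0.16 for Sos1 (adjusted p = 0.0104) and 1.48 ± 0.14 for Pik3r1, the regulatory subunit of PI3K (adjusted p = 1.37e-06). Between genotypes 7 were higher and 7 lower in GFP+ cells (24.9% and 28.1% of all genes), and 7 higher and 8 lower in GFP- cells (32.0% and 30.7% of all genes), near those shares. Pik3r1 was at -1.58 ± 0.10 in GFP- cells (edgeR adjusted p = 2.78e-10), Plcg1, phospholipase C gamma, at -1.44 ± 0.14 (adjusted p = 7.79e-08), and Gab2 at -1.24 ± 0.20 (adjusted p = 4.28e-05). In GFP+ cells Ptpn11, the phosphatase SHP2, was higher by 0.78 ± 0.14 (edgeR adjusted p = 0.000135).

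**Figure D5:**
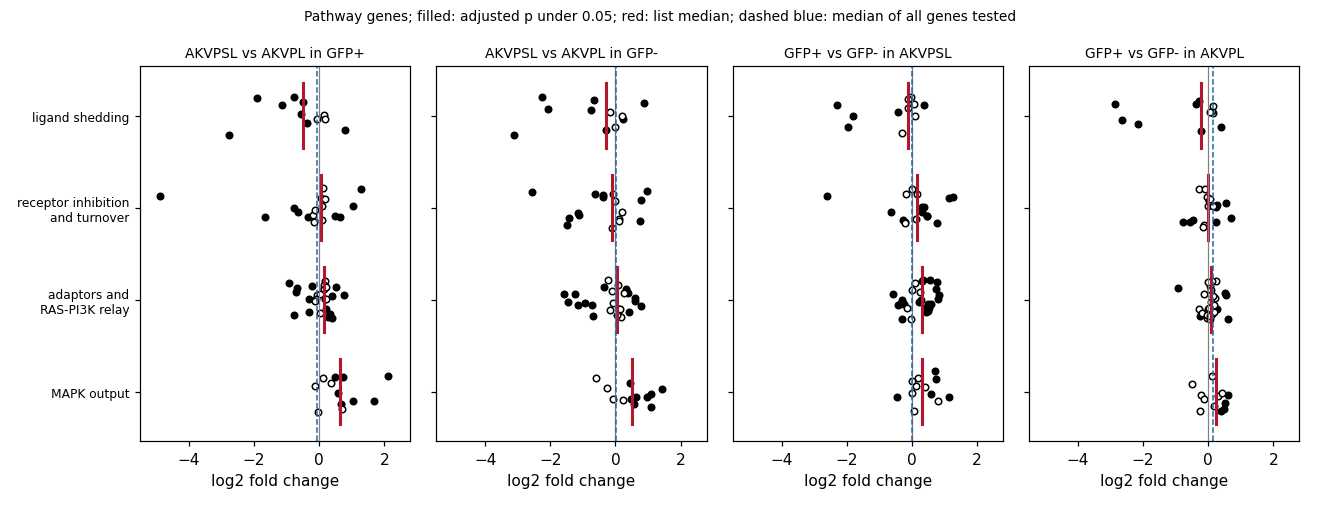
Log2 fold changes of the genes on 4 pathway lists in 4 comparisons; each point is a gene, filled where the edgeR adjusted p is under 0.05, red lines are list medians and dashed blue lines the median of all genes tested. The MAPK output list has medians of 0.64 and 0.52 for AKVPSL against AKVPL in GFP+ and GFP- cells.

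Over the 16 libraries, which fall into the 4 groups, the genes whose log2 CPM followed each member most closely were looked up among 12309 candidates, as a description with no test. Hbegf was followed by Spry2 (Pearson r = 0.99) and Dusp6 (r = 0.96), both on the MAPK output list. Tgfa was followed by Nr3c1, the glucocorticoid receptor (r = 0.98), and Zdhhc21 (r = 0.98), and Btc by Acsm3 (r = 0.97) and Cep55 (r = 0.97). Areg was followed by Rap2b (r = 0.94) and Tmem251 (r = 0.92). Nrg1 was followed by Nr4a3 (r = 0.98) and Il1rn, the interleukin 1 receptor antagonist (r = 0.97), and Ereg was followed by Fibin (r = 0.95). Egfr was followed by Dner (r = 0.96), Erbb2 by Foxq1 (r = 0.95) and Pcyt1b (r = 0.91), and Erbb3 by Dennd4c (r = 0.98) and Zfp106 (r = 0.97). Epgn had the loosest matches, Btf3l4 (r = 0.75) and Ndfip2 (r = 0.72). No member was among the 2 closest genes of another.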

How the data were processed

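RNA of cells sorted by flow cytometry was isolated with a column kit, per the labels' protocols. Reads were aligned with GSNAP to GRCm38, per the submitters' processing notes; the sources used here do not give versions, gene lengths or the strand setting. The deposited count of a gene is the number of reads aligned uniquely to its gene model, per the file headers. The authors also deposited size-factor-adjusted RPKM values, so named in the file headers. Symbols and positions came from RefSeq tables (31049 of 36528 identifiers matched, 85.0%).

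Groups were taken from the titles. Chi-square per degree of freedom was 9.05 to 73.58 for the 24 pairs of libraries of a group, well above sampling noise, so none was the same library sequenced again. This does not show that the libraries came from separate animals. Counts were fitted with edgeR 4.0.16 in R 4.3.3: filterByExpr kept 18072 genes, TMM factors ran from 0.936 to 1.086, and all 16 libraries entered 1 model with 4 group means (residual degrees of freedom 12, common BCV 0.182). Tests were 2-sided quasi-likelihood F tests of 5 contrasts: genotype within each sort, sort within each genotype, and the difference of the sort effects. Errors of log2 changes are SEs calculated back from the F statistic; a floor of 3 counts over a group replaces a sum of 0. CPM are counts scaled by TMM.

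The numbers pair the sorts within a genotype: deviations of same-numbered libraries correlated at 0.103 to 0.366 in AKVPSL and 0.131 to 0.256 in AKVPL, all over 0.1. In AKVPSL some differently numbered libraries correlated more (GFP+ 4 with GFP- 3 at 0.326, GFP+ 3 with GFP- 4 at 0.38), so the block there rests on that rule. Across genotypes they did not (lowest -0.039).

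Members, gene lists and motifs were chosen with earlier results of these data known. Pathway genes were named by a rule: from each list and contrast, up to 3 with the largest change among those past the threshold with groups that do not overlap. The printed subset was picked after its values were seen, and so were Lgr5, Smad4, Mthfd2l, Parm1 and Cxcl2. Likeness was taken over genes whose mean log2 CPM was 1 or more. Some genes that these rules take are not reported here. Alternatives were other scalings, no filter, DESeq2 1.42.0, limma 3.58.1 on log2(RPKM + 1), the 2 groups alone, a replicate block and leaving out each library. The fit was tested on simulated data.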

Additional observations from a re-analysis of the deposited data

Results flagged for a closer look

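Of the 50 member results, 2 stood out because the effect of the sort differed between the genotypes by a direct test of that difference. For Btc the difference of the sort effects, AKVPSL minus AKVPL, was -0.99 on the log2 scale (edgeR adjusted p = 0.000306), with GFP+ above GFP- in 2 of 4 pairs in AKVPSL and 4 of 4 pairs in AKVPL. For Erbb2 the difference was -0.49 (edgeR adjusted p = 0.0277), with GFP+ above GFP- in 4 of 4 pairs in both genotypes. The Btc difference passed under every alternative that was run, and the Erbb2 difference did not, as given with the dependence on the processing. No cause was tested for either. The 40 sets of 4 libraries (10 members in 4 groups) were checked for a library far from its group by Dixon's criterion at the 95% level, and 0 were found.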

How the results depend on the processing

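Each of the 50 member results was recomputed under 8 other settings and without each of the 16 libraries. Of the 22 called results 18 were called under every alternative run and 0 changed sign. The 4 exceptions were Areg between genotypes in GFP- cells and Nrg1 (AKVPSL sort, and genotype in GFP+), given in the report, and the Erbb2 difference of sort effects. The last was -0.40 under size factors and DESeq2, -0.43 under library totals and without the filter, -0.39 under limma, -0.24 under epithelial scaling, and -0.57 to -0.43 over the sets that leave out a library. It was lost without AKVPL GFP- replicate 2 (-0.48) or 3 (-0.46), AKVPL GFP+ replicate 1 (-0.43) or 4 (-0.48), or AKVPSL GFP+ replicate 2 (-0.44). The cause was not tested.

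The count of members called for the difference of sort effects was 1 under size factors, totals and no filter, and 1 to 3 leaving out a library. With the replicate block 7 members were called in the AKVPSL sort, and 4 to 5 leaving out a library. The other member counts ran from 5 to 6 (AKVPL sort), 5 to 6 (genotype, GFP+) and 5 to 7 (genotype, GFP-). Pathway genes called for the difference were 15, against 24 under epithelial scaling, 23 with DESeq2 and 13 to 20 leaving out a library. Pathway genes in the AKVPL sort were 14 higher and 11 lower, against 2 and 22 under epithelial scaling, 8 and 12 under size factors, totals, no filter and DESeq2, 8 and 13 under limma and 7 and 15 with the 2 groups alone. Between genotypes in GFP- they were 20 and 22, against 11 and 35 under epithelial scaling, and for the difference 9 and 6, against 22 and 2. Elsewhere leaving out a library gave 32 to 42 (genotype, GFP+), 37 to 43 (genotype, GFP-), 32 to 43 (AKVPSL sort) and 17 to 26 (AKVPL sort). In the AKVPSL sort the split of 28 higher and 14 lower was 17 and 16 without AKVPSL GFP- replicate 1.

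Only uncalled values changed sign. Areg in the AKVPL sort (0.05) was -0.049 under size factors, -0.047 with DESeq2, -0.056 with the 2 groups alone, -0.028 under totals, -0.28 under epithelial scaling, -0.040 without the filter, -0.20 under limma, -0.092 with the replicate block and -0.26 to 0.32 leaving out a library. Epgn there was -0.0083 under size factors, -0.22 under epithelial scaling and -0.31 to 0.40 leaving out a library. Under epithelial scaling Hbegf in the AKVPL sort was -0.10 and Erbb2 between genotypes in GFP- -0.092; the Nrg1 difference was 0.36 under limma. Leaving out a library gave -0.31 to 0.17 for Ereg (genotype, GFP-), -0.039 to 0.28 for the Hbegf difference, -0.048 to 0.69 for Epgn and -0.013 to 0.34 for Erbb3 (both genotype, GFP+). Erbb2 between genotypes passed with the replicate block at -0.25 in GFP+ (edgeR adjusted p = 0.0413) and 0.24 in GFP- (adjusted p = 0.0466), where the numbers do not pair. Beside these, the block changed the calls of Areg, Hbegf and Erbb2 (AKVPSL sort) and Erbb3 (AKVPL sort), given in the report, and of no other member. The Egfr difference passed under epithelial scaling (0.77), DESeq2 (0.59) and limma (0.57), the Tgfa difference (0.58) and Erbb3 between genotypes in GFP- (-0.78) under epithelial scaling, and Areg (-0.60, AKVPSL) and Erbb3 (0.54, AKVPL) in the sorts with the 2 groups alone. Depth limits Epgn, Nrg1 and Ereg, whose lowest libraries held 2, 5 and 8 counts.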
